A study of Mus musculus with 8 samples.

Results

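Cell death regulators and targets of the p53 tumour suppressor were examined in epithelial cells sorted from the mouse small intestine. The set comprises 45 genes from a list of gene symbols, grouped by their textbook roles: the BCL2 family, caspases and their cofactors, inhibitors of apoptosis, death receptors, necroptosis genes and the p53 pathway. The list was chosen with earlier results of these data known. All 45 were found among the 23318 Ensembl genes of the deposited files, and 44 of them passed the filter on low values (at least 10 in at least 4 libraries). That filter can pass a gene on 1 fraction alone. RNA sequencing libraries had been made from total RNA of 2 fractions. CD24Mid cells, also called CD24low by the submitters, carry an intermediate amount of the surface glycoprotein CD24. CD24Neg cells lack it. From both fractions, cells bearing the leukocyte antigen CD45 and cells stained by Ulex lectin, a fucose-binding plant protein, had been removed. There were 4 biological replicates of each fraction, with library numbers 1, 3, 5 and 7 for CD24Mid and 2, 4, 6 and 8 for CD24Neg. The labels used here give no mouse strain, genotype, age or treatment.

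Apoptosis proceeds by an intrinsic route, in which the effectors BAX and BAK open the mitochondrial outer membrane, and by an extrinsic route, in which death receptors activate caspase-8. Anti-apoptotic BCL2 proteins hold the effectors in check, BH3-only proteins relieve that check, and released cytochrome c assembles APAF1 and caspase-9 into the apoptosome. In the intestine, dividing crypt cells are known for p53-dependent death after DNA damage, and mature cells leave the villus tip by shedding. Many of the proteins are controlled after transcription, so a transcript level is not a level of activity.

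Values below are the deposited normalised expression values. Where 4 values are listed they follow the order of the library numbers. Means are given ± SD with n = 4 libraries per fraction. Folds and log2 fold changes are CD24Neg minus CD24Mid on the scale of log2(value + 0.5), limma's p-values were adjusted by the Benjamini-Hochberg method across the 12906 tested genes, and a gene is called at an adjusted p below 0.05. Spacing of the lowest values gave estimated depths of 17.4 to 19.6 M reads in CD24Mid against 12.4 to 20.6 M reads in CD24Neg. Mitochondrially encoded genes took 8.03 to 9.10% and 28.3 to 37.4% of the values. The value of 1 read was 0.585 to 0.698 units in CD24Mid but 1.07 to 1.79 units in CD24Neg, so values of a few units in CD24Neg rest on 1 to 3 reads. All 7 epithelial markers, Epcam and Cdh1 among them, were present in every library, with a summed level of 0.786 to 0.959% in the CD24Mid libraries and 1.05 to 1.16% in those of CD24Neg of nuclear-gene values. The summed level of 9 enterocyte markers was 0.164 to 0.279% in the CD24Mid libraries and 3.17 to 5.12% in those of CD24Neg, and that of 7 stem cell markers was 0.488 to 0.683% in the CD24Mid libraries and 0.0175 to 0.0460% in those of CD24Neg. Goblet cell markers, 6 in number, were present in both fractions at 0.453 to 0.673% in the CD24Mid libraries and 1.16 to 3.34% in those of CD24Neg. In bulk RNA, fewer cells of a type and less RNA per cell cannot be told apart, and this holds for every difference below.

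Most of the death regulators were higher in CD24Neg. Among the 44 tested members 28 were called higher and 7 lower, and 9 were not called. Over all tested genes 68.3% were called, 34.0% higher and 34.3% lower. These shares are the background for every count of calls below. The members' share of calls, 79.5%, is to be read against that background, and their share of higher calls was 63.6%. The 2 fractions did not overlap for 24 of the higher and 6 of the lower members, 30 in all, where the background was 31.8%, 32.1% and 63.8% of tested genes. More than 2-fold differences were called for 10 higher and 5 lower members (background 18.1% and 19.9%, 38.0% in either direction). Their median log2 fold change was 0.61 against -0.02 over all tested genes. The direction of the smaller changes depended on how libraries were scaled. When each library was scaled to its own total, leaving the 20 most abundant genes out (below, scaling to totals), the median over all genes moved to -0.46 and the share of higher calls among all calls from 49.8% to 29.8%. Then 16 members were higher and 14 lower. The distance of the members' median from that of all genes was 0.63 in the main scaling and 0.62 in the other. Scaling shifts all genes of a library nearly alike, so this distance could hardly change and is no test of the members' shift. A set of 14 members kept its call under all 19 alternatives that were run: Bok, Bad, Bmf, Bbc3, Bcl2l15, Casp6, Casp8, Cycs, Fas, Tnfrsf1a, Mdm2 and Sesn1 as higher, and Trp53 and Aen as lower. The lower calls of Eda2r and Phlda3 rest on CD24Neg values at or under 3 reads, and these genes passed the filter through CD24Mid alone, so the call adds nothing to their values. Both are included in the counts of lower members above.

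**Figure D1:**
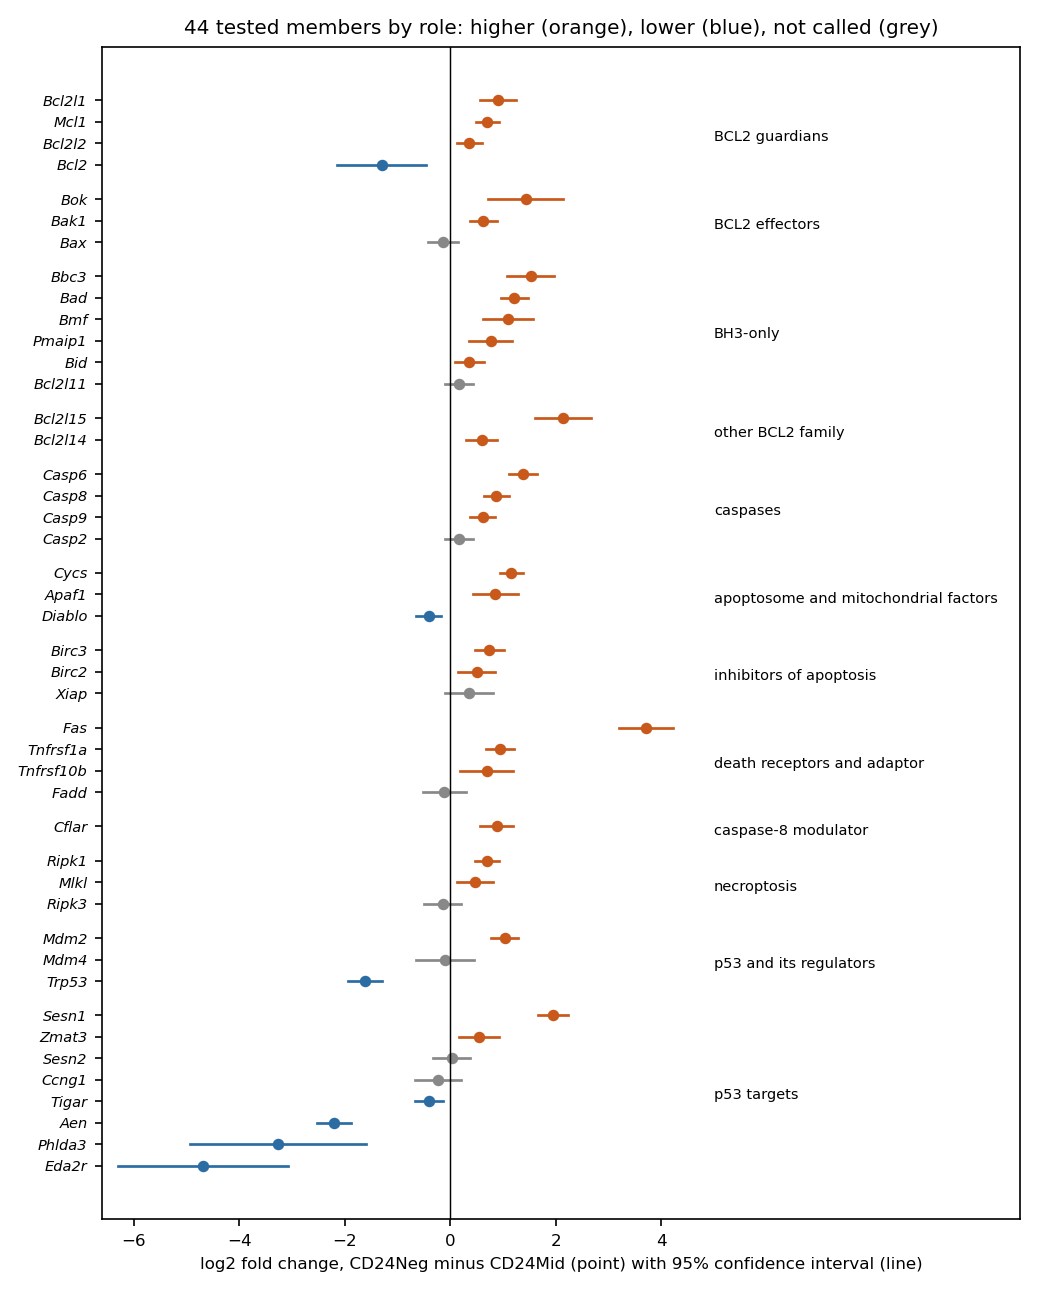
Log2 fold change, CD24Neg minus CD24Mid, of the 44 tested members (points) with 95% confidence intervals from limma (lines), grouped by role, with higher calls in orange, lower calls in blue and genes that were not called in grey. Most points of the BCL2 family, caspase and death receptor groups lie right of 0, Fas lies farthest right at 3.71, and the p53 targets lie on both sides of 0. Eda2r and Phlda3 are drawn at fitted values that depend on the pseudocount, since they lay at or under 3 reads in CD24Neg.

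Pro-apoptotic and anti-apoptotic members did not split by fraction. Of 20 tested pro-apoptotic genes (effectors, BH3-only genes, caspases, apoptosome genes, death receptors and their adaptor) 15 were higher and 1 was lower, and the median log2 fold change was 0.81. Of 8 anti-apoptotic genes 6 were higher and 1 was lower, with a median of 0.60. The share called higher was 75.0% on either side, against 34.0% higher and 34.3% lower over all tested genes. With scaling to totals these counts were 9 higher and 5 lower for the first set and 3 higher and 1 lower for the second. Of the 12906 tested genes 2790 were then called higher and 6564 lower. No higher anti-apoptotic gene differed by as much as 2-fold, while 7 pro-apoptotic genes were more than 2-fold higher (background 18.1%).

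Among the anti-apoptotic BCL2 genes, 3 were higher in CD24Neg and Bcl2 itself was lower. Bcl2, the founding member of the family, had values of 99.4, 133, 169 and 142 in CD24Mid and 74.1, 30.1, 36.1 and 105 in CD24Neg. The fractions overlapped, since CD24Neg library 8 lay above CD24Mid library 1. On average Bcl2 was 2.46-fold lower in CD24Neg (log2 fold change -1.30 ± 0.38 SE, limma adjusted p = 0.0112). Exons of Bcl2 overlap those of D630008O14Rik on the opposite strand. Bcl2l1, which encodes BCL-XL, had values of 493, 509.9, 412 and 337 in CD24Mid and 812, 904, 872 and 671 in CD24Neg, without overlap. It was 1.87-fold higher (log2 fold change 0.90 ± 0.15 SE, limma adjusted p = 0.0004). Mcl1, a short-lived guardian protein's gene, rose 1.62-fold from 2359, 1949.6, 2197 and 2208 to 3534, 3292, 3869.6 and 3433 (adjusted p = 0.000119), again without overlap. Quantile normalization ended the Mcl1 call (log2 fold change 0.21, adjusted p = 0.0623). Bcl2l2, the gene of BCL-W, was 1.28-fold higher (462 ± 35.5 against 594 ± 58.1, adjusted p = 0.0119), a direction that flipped with scaling to totals (-0.081, adjusted p = 0.474). An annotated read-through gene shares exons with Bcl2l2, so the division of reads between them is uncertain.

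Immune cell transcripts varied across the libraries, and their values stand here beside those of Bcl2. The summed level of 13 lymphocyte markers was 0.00143 to 0.00382% in the CD24Mid libraries and 0.00411 to 0.0724% in those of CD24Neg of nuclear-gene values. Within CD24Mid it was 0.00382% in library 1 and 0.00365% in library 7 against 0.00143% in library 3 and 0.00171% in library 5. Within CD24Neg it was 0.0724% in library 2 and 0.0573% in library 8 against 0.00411% in library 4 and 0.0112% in library 6. Libraries 2 and 8 were also the CD24Neg libraries with the higher Bcl2 values. Ptprc, the gene of the depleted antigen CD45, had values of 316, 39.96, 129.7 and 551 there, and no lymphocyte marker was at 0 in all libraries. B and plasma cell markers, 7 in number, had a summed level of 0.0437 to 0.0868% in the CD24Mid libraries and 0.00842 to 0.0123% in those of CD24Neg. With libraries 2 and 8 left out, an alternative chosen after seeing the data, the log2 fold change of Bcl2 went to -1.98, adjusted p = 0.000179. The part of immune cells in the Bcl2 levels of either fraction was not tested. Fasl, the ligand of the death receptor FAS and a gene of cytotoxic lymphocytes, was named after its values were seen. It was too low for the filter, with values of 2.16, 0, 0 and 0.339 in CD24Mid and 50.1, 6.56, 6.06 and 34.8 in CD24Neg, and libraries 2 and 8 were again the highest.

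**Figure D2:**
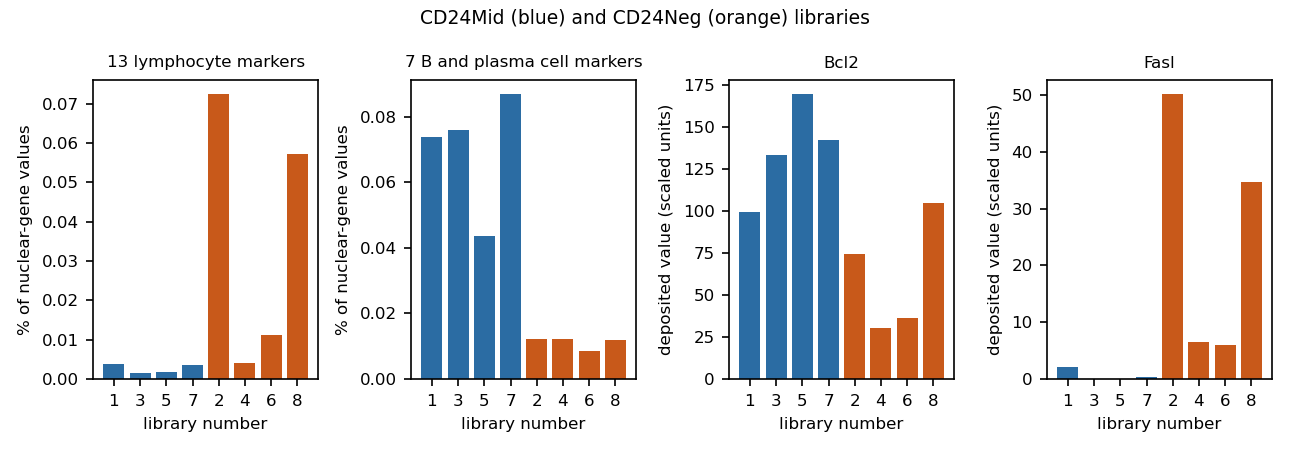
Summed level of 13 lymphocyte markers and of 7 B and plasma cell markers (percent of the values of nuclear genes) and the deposited values of Bcl2 and Fasl, 1 bar per library, CD24Mid in blue and CD24Neg in orange. CD24Neg libraries 2 and 8 stand highest for the lymphocyte markers and for Fasl, and are the higher CD24Neg libraries for Bcl2, while the B and plasma cell markers are higher in all 4 CD24Mid libraries.

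The pore-forming effectors differed from each other. Bax had values of 571, 553, 450.0 and 459 in CD24Mid and 559, 427, 419 and 441 in CD24Neg, which overlapped, and its difference was not called (log2 fold change -0.14, 95% confidence interval -0.43 to 0.15, adjusted p = 0.355). Bax was called lower with scaling to totals (-0.58, adjusted p = 0.00324). Bak1 rose 1.55-fold (1833 ± 173 against 2837 ± 296, adjusted p = 0.000627), without overlap of the fractions. This call ended with scaling to totals (0.19, adjusted p = 0.115) and with quantile normalization (0.17, adjusted p = 0.178). Exons of Bak1 overlap those of Ggnbp1 on the opposite strand. Bok, a BAX-like gene regulated through the stability of its protein, had values of 203, 203, 130.4 and 136 in CD24Mid and 289, 609, 735 and 299 in CD24Neg. All CD24Neg libraries lay above all CD24Mid libraries, with libraries 4 and 6 far above libraries 2 and 8. The rise was 2.69-fold (log2 fold change 1.43 ± 0.32 SE, limma adjusted p = 0.00241), and without libraries 2 and 8 the log2 fold change was 2.05, adjusted p = 8.65e-05.

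BH3-only genes, the sensors that trigger the intrinsic route, were called higher in 5 of 6 tested cases. Bbc3, which encodes the p53-responsive sensor PUMA, had values of 59.4, 51.6, 52.9 and 48.1 in CD24Mid and 155, 185, 108 and 176 in CD24Neg. It showed no overlap and a 2.87-fold rise (log2 fold change 1.52 ± 0.20 SE, limma adjusted p = 7.34e-05). Bad, whose protein is held inactive by survival kinases, had 381, 321, 287 and 279 in CD24Mid and 712, 749.7, 772 and 697 in CD24Neg. The CD24Neg values were all above those of CD24Mid, and the gene was 2.33-fold higher (log2 fold change 1.22 ± 0.12 SE, limma adjusted p = 8.1e-06). Exons of Bad overlap those of Gpr137 on the opposite strand, and the labels do not say whether counting used strand. Bmf, a sensor tied to the cytoskeleton, rose 2.14-fold (73.8 ± 17.96 against 157 ± 26.7, adjusted p = 0.00104). Pmaip1, the gene of the MCL1-binding protein NOXA, rose 1.70-fold (562 ± 116 against 956 ± 199, adjusted p = 0.00391), a call that scaling to totals ended (0.32, adjusted p = 0.147).

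The other 3 sensors gave small or low values. Bid, which links caspase-8 to mitochondria, was called at 1.28-fold higher (229.9 ± 27.9 against 294 ± 25.2, adjusted p = 0.0258), but its direction flipped with scaling to totals (-0.084, adjusted p = 0.556). The Bid call also ended when any 1 of CD24Mid libraries 3, 5 and 7 or CD24Neg libraries 2 and 6 was removed, with an adjusted p between 0.0527 and 0.0806, and when CD24Neg libraries 2 and 8 were both removed (0.35, adjusted p = 0.0795). Bcl2l11, the gene of BIM, was not called (224 ± 19.1 against 252 ± 21.9, 95% confidence interval of the log2 fold change -0.10 to 0.43, adjusted p = 0.241). With scaling to totals it was called lower (-0.28, adjusted p = 0.0487). Bik was the member under the filter. Its values were 10.3, 12.5, 6.42 and 7.59 in CD24Mid and 0, 1.07, 0 and 0 in CD24Neg, so it was detected in every CD24Mid library and lay at or under 1 read in every CD24Neg library. The limit of detection was higher in CD24Neg, where 3 reads were worth 3.23 to 5.38 units.

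Bcl2l15 and Bcl2l14, family members whose place between the death and survival sides is less settled, were both higher. Bcl2l15 had values of 262, 136, 130.2 and 185 in CD24Mid and 860.5, 579, 690.0 and 956 in CD24Neg. The fractions stood well apart, and the 4.41-fold rise was the largest within the BCL2 family (log2 fold change 2.14 ± 0.24 SE, limma adjusted p = 2.34e-05). Bcl2l14 rose 1.51-fold (475 ± 75.9 against 716 ± 73.1, adjusted p = 0.0024), without overlap, and lost its call with scaling to totals (0.16, adjusted p = 0.266).

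Levels per kilobase of transcript allow the family members to be ranked within a fraction. Lengths were those of the longest protein-coding transcript in GENCODE M21, which need not be the isoform expressed. Among the guardians Mcl1 stood first at 637 ± 49.5 in CD24Mid and 1033 ± 72.0 in CD24Neg, followed by Bcl2l1 at 171 ± 31.0 in CD24Mid and 317 ± 40.1 in CD24Neg and Bcl2l2 at 121 ± 9.31 in CD24Mid and 156 ± 15.2 in CD24Neg. Bcl2 came last at 18.9 ± 4.02 in CD24Mid and 8.53 ± 4.87 in CD24Neg. This order was the same in both fractions, and the spread of each guardian did not reach the mean of its neighbour in either one. Bak1 led the effectors at 768 ± 72.6 in CD24Mid and 1188 ± 124 in CD24Neg, with Bax at 586 ± 72.0 in CD24Mid and 532 ± 75.7 in CD24Neg and Bok at 114 ± 27.4 in CD24Mid and 329 ± 153 in CD24Neg. Of the BH3-only genes Bad and Pmaip1 were the most abundant per kilobase and were level in CD24Mid, at 207 ± 30.3 and 206 ± 42.4. In CD24Neg, Bad stood at 478 ± 22.3 and Pmaip1 at 350.5 ± 73.1.

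**Figure D3:**
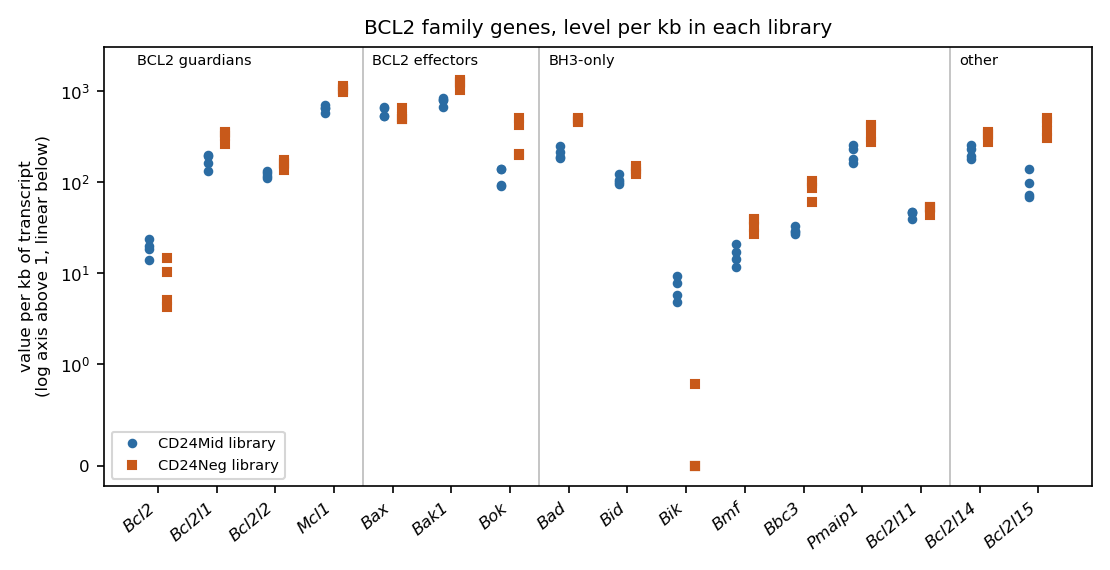
Level per kilobase of transcript of the 16 BCL2 family members in each of the 4 CD24Mid libraries (blue circles) and 4 CD24Neg libraries (orange squares), on an axis that is logarithmic above 1 and linear below. Mcl1, Bak1 and Bax occupy the top in both fractions, Bcl2 is the lowest guardian, and Bik reaches 0 in 3 CD24Neg libraries.

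Of the caspase genes 3 of 4 were higher in CD24Neg, and of the apoptosome and mitochondrial factor genes 2 of 3. Casp6, an executioner that cleaves lamins, had values of 1452, 1069, 1163 and 1186 in CD24Mid and 3187, 2984, 3576 and 2890.0 in CD24Neg. The fractions did not overlap, and the rise was 2.60-fold (log2 fold change 1.38 ± 0.12 SE, limma adjusted p = 4.1e-06). Casp8, the initiator of the extrinsic route, had 1155, 1018, 938 and 929 in CD24Mid and 1755, 1717, 2038 and 1893 in CD24Neg, which also stood apart (1.84-fold, log2 fold change 0.88 ± 0.10 SE, limma adjusted p = 3.6e-05). Casp9, the initiator bound by the apoptosome, rose 1.53-fold (348 ± 30.6 against 533 ± 43.4, adjusted p = 0.000518), a call that ended with scaling to totals (0.17, adjusted p = 0.13). Casp2 was not called (1042 ± 62.8 against 1176 ± 176, adjusted p = 0.234). With scaling to totals it was called lower (-0.28, adjusted p = 0.0349). Without CD24Neg libraries 2 and 8 it was called higher, as its log2 fold change went from 0.16 to 0.37, adjusted p = 0.0178.

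Cycs, which encodes cytochrome c of the respiratory chain and of the apoptosome, rose 2.23-fold from 2032, 1814, 1730.0 and 1891 to 4112, 3909, 4590.0 and 4045 (adjusted p = 3.28e-06). Cycs has processed pseudogene copies, so part of its reads may be assigned with uncertainty. Mitochondrially encoded transcripts, quoted above, were higher in the same libraries, and their part in the Cycs difference was not tested. Apaf1, the scaffold of the apoptosome, rose 1.81-fold (806 ± 155 against 1471 ± 358, adjusted p = 0.00278), with a call that ended under scaling to totals (0.41, adjusted p = 0.0786). Diablo, whose protein SMAC is released from mitochondria and blocks inhibitors of apoptosis, was the pro-apoptotic gene that fell. Its values of 431, 484, 384 and 393 in CD24Mid lay above those of 339.5, 301, 318 and 314 in CD24Neg in every library (1.32-fold lower, log2 fold change -0.41 ± 0.11 SE, limma adjusted p = 0.00673). Exons of Diablo overlap B3gnt4 and a further gene on the opposite strand.

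Of the 3 inhibitors of apoptosis 2 were called, both by less than 2-fold. Birc3, the gene of cIAP2, rose 1.67-fold (451 ± 73.4 against 749.6 ± 67.5, adjusted p = 0.000435), and its neighbour Birc2, the gene of cIAP1, rose 1.41-fold (449 ± 46.0 against 644 ± 134, adjusted p = 0.0151). Both calls ended with scaling to totals (0.30, adjusted p = 0.0708 for Birc3 and 0.059, adjusted p = 0.737 for Birc2). Xiap, the direct caspase inhibitor, was not called (992 ± 229.9 against 1265 ± 275, adjusted p = 0.149). It was called higher without CD24Neg library 2 (0.53, adjusted p = 0.0221) and without both libraries 2 and 8 (0.59, adjusted p = 0.0331).

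The death receptor Fas showed the largest rise of any member. Fas had values of 60.3, 37.3, 30.01 and 60.8 in CD24Mid and 522, 589, 641 and 637 in CD24Neg. Every CD24Neg library stood far above the highest CD24Mid library, and the fitted difference was 13.1-fold (log2 fold change 3.71 ± 0.23 SE, limma adjusted p = 6.69e-07). With CD24Neg libraries 2 and 8 left out the log2 fold change was 3.78, adjusted p = 1.87e-05. Tnfrsf1a, the main receptor of tumour necrosis factor, rose 1.92-fold (975 ± 144 against 1864 ± 165, adjusted p = 6.98e-05), without overlap. Tnfrsf10b, the mouse TRAIL receptor, was 1.61-fold higher with overlapping fractions (139.7 ± 25.7 against 229.5 ± 61.0, adjusted p = 0.0192). That call ended with scaling to totals (0.25, adjusted p = 0.3), when no low values were filtered out (0.69, adjusted p = 0.0595), and without CD24Mid library 7 or CD24Neg library 4 or 6 (adjusted p from 0.0531 to 0.0565).

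Downstream of the receptors, the adaptor did not follow the receptors and the initiator. Fadd, which bridges receptors and caspase-8, had values of 514, 521, 403 and 393 in CD24Mid and 499, 515, 394 and 302 in CD24Neg and was not called (log2 fold change -0.12, 95% confidence interval -0.53 to 0.29, adjusted p = 0.584). With scaling to totals it was called lower (-0.56, adjusted p = 0.0155), and its exons overlap an antisense gene. Cflar, the gene of the caspase-8 modulator FLIP, rose 1.84-fold (746 ± 109 against 1372 ± 209, adjusted p = 0.00028). Of the necroptosis genes Ripk1, a kinase shared by survival and death signalling, rose 1.62-fold (472 ± 21.1 against 768 ± 82.3, adjusted p = 0.000149). Its call ended with scaling to totals of genes outside the mitochondrial genome (0.23, adjusted p = 0.0537), an alternative chosen after seeing the data, and its exons overlap Serpinb6a. Mlkl, the membrane-permeabilising executor, rose 1.38-fold (149 ± 19.2 against 207 ± 29.5, adjusted p = 0.0186). The Mlkl call ended with scaling to totals (0.029, adjusted p = 0.869) and without CD24Mid library 3 (0.39, adjusted p = 0.0585). Ripk3, the kinase that activates MLKL, was not called (547 ± 54.0 against 501 ± 107, adjusted p = 0.423). It was called lower with scaling to totals (-0.59, adjusted p = 0.0128) and without CD24Neg libraries 2 and 8 (-0.39, adjusted p = 0.0336).

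**Figure D4:**
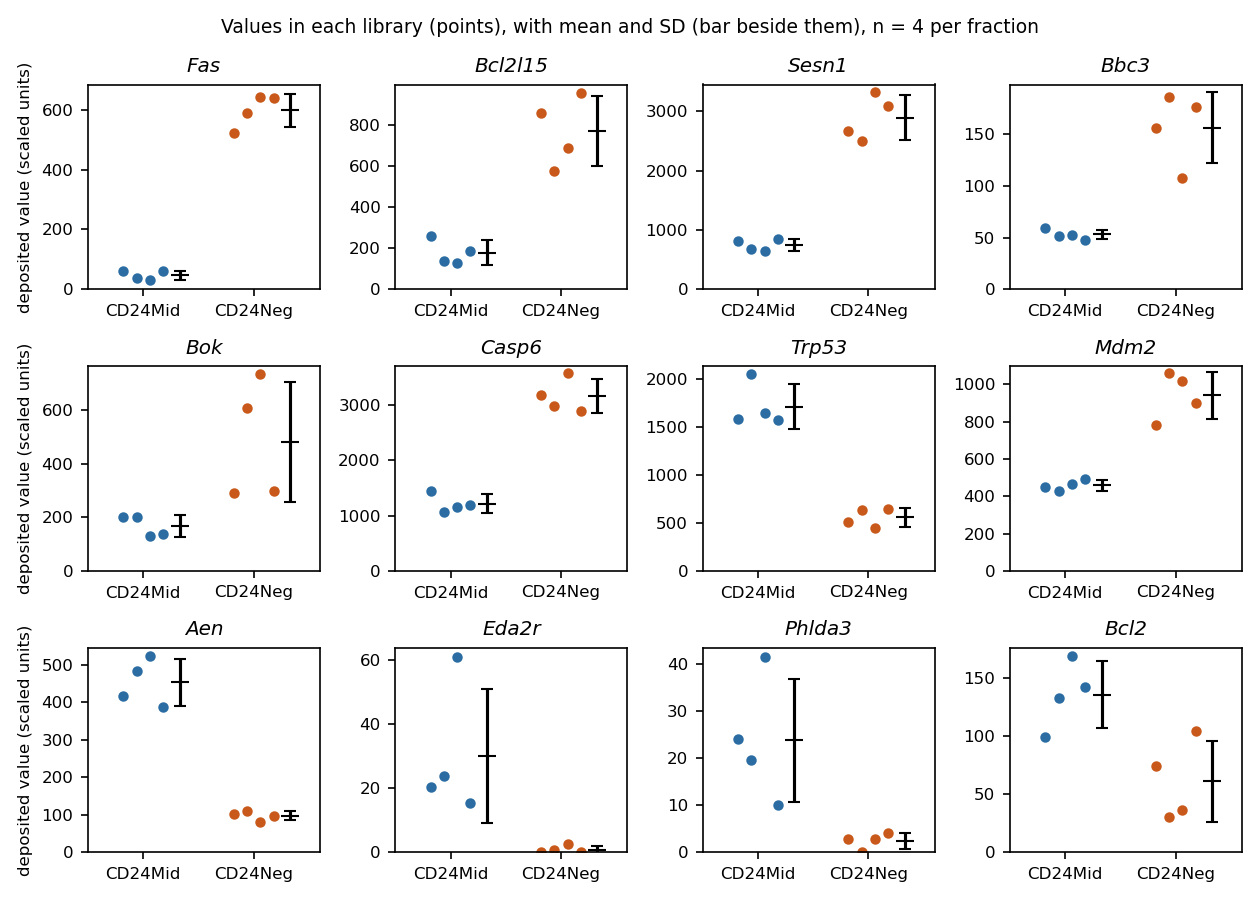
Deposited values of 12 members in each library (points, CD24Mid in blue and CD24Neg in orange, both in the order of the library numbers), with the mean and SD of each fraction drawn beside them (n = 4) and axes that start at 0. Fas, Bcl2l15, Sesn1, Bbc3, Bok, Casp6 and Mdm2 are higher and Trp53, Aen, Eda2r and Phlda3 lower in all 4 CD24Neg libraries, while the fractions overlap for Bcl2.

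Ratios of antagonists within a library do not depend on how libraries are scaled, and are given as a description without a test. The log2 ratio of Bax to Bcl2l1 per kilobase was 1.78, 1.68, 1.69 and 2.01 in CD24Mid and 1.03, 0.49, 0.51 and 0.96 in CD24Neg. It was lower in every CD24Neg library, by 1.05 on average. Bcl2l11 relative to Mcl1 also lay lower in CD24Neg without overlap (-3.84 ± 0.18 in CD24Mid and -4.37 ± 0.13 in CD24Neg). By contrast, Bak1 relative to Mcl1 overlapped (0.27 ± 0.17 in CD24Mid and 0.20 ± 0.18 in CD24Neg), as did Bbc3 relative to Bcl2l1 (-2.52 ± 0.21 in CD24Mid and -1.90 ± 0.45 in CD24Neg), in which CD24Neg library 6 fell within the CD24Mid range. Casp8 and its modulator Cflar kept the same mean ratio (1.79 ± 0.32 in CD24Mid and 1.79 ± 0.10 in CD24Neg). Ripk3 relative to Casp8 was lower in CD24Neg without overlap (-0.49 ± 0.09 in CD24Mid and -1.51 ± 0.38 in CD24Neg). Neither Casp9 relative to Xiap (-0.68 ± 0.46 in CD24Mid and -0.41 ± 0.37 in CD24Neg) nor Diablo relative to Xiap (0.19 ± 0.47 in CD24Mid and -0.56 ± 0.41 in CD24Neg) separated the fractions. Mdm2 relative to Mdm4 was 1.11, 1.27, 0.45 and 0.61 in CD24Mid and 2.25, 2.14, 1.72 and 1.81 in CD24Neg, higher in every CD24Neg library.

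**Figure D5:**
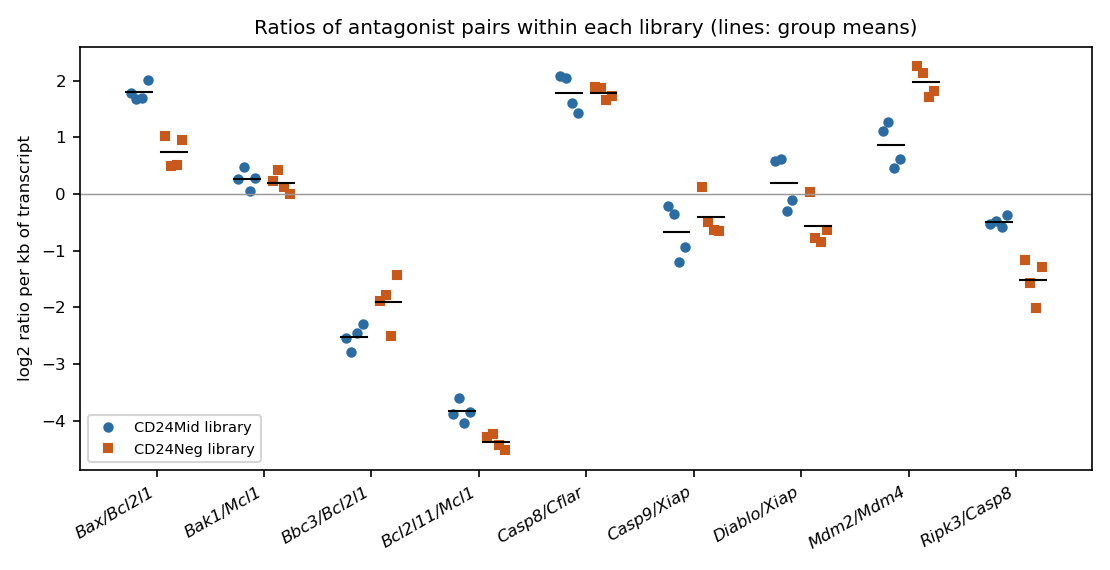
Log2 ratio per kilobase of transcript for 9 pairs of antagonists or partners within each CD24Mid library (blue circles) and CD24Neg library (orange squares), with lines at the means of 4 libraries. The fractions separate for Bax/Bcl2l1, Bcl2l11/Mcl1, Mdm2/Mdm4 and Ripk3/Casp8 and overlap for the other 5 pairs.

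The p53 gene and its negative regulator moved in opposite directions. Trp53, which encodes p53, had values of 1583, 2053, 1642 and 1568 in CD24Mid and 509.6, 632, 445 and 649 in CD24Neg. Every CD24Neg library lay far below the lowest CD24Mid library, and Trp53 was 3.08-fold lower (log2 fold change -1.62 ± 0.14 SE, limma adjusted p = 5.43e-06). Mdm2, the ubiquitin ligase that degrades p53 and is itself a p53 target, had 448, 428, 463 and 494 in CD24Mid and 782, 1062, 1016 and 901 in CD24Neg. It was 2.04-fold higher without overlap (log2 fold change 1.03 ± 0.11 SE, limma adjusted p = 2.29e-05). Mdm4, a partner of MDM2, had 469, 402, 764 and 729 in CD24Mid and 370.1, 543, 698 and 579.6 in CD24Neg. The CD24Mid libraries differed among themselves, with 5 and 7 above 1 and 3, and Mdm4 was not called (log2 fold change -0.09, 95% confidence interval -0.64 to 0.46, adjusted p = 0.756). The fraction with the higher Trp53 level also had the higher summed level of 6 proliferation markers, 0.168 to 0.266% in the CD24Mid libraries and 0.0176 to 0.0369% in those of CD24Neg of nuclear-gene values, and their part in the result was not tested.

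Of the 8 p53 targets 2 were called higher and 4 lower, and 2 were not called. The share called was 75.0% against the background of 68.3%. The lower calls include Eda2r and Phlda3, which only their CD24Mid values took past the filter. The share is therefore not read as a result about the targets. Sesn1, which encodes a stress-induced inhibitor of growth signalling, had values of 820.0, 685, 651 and 843 in CD24Mid and 2662, 2504, 3316 and 3088 in CD24Neg. These values stood far apart (3.86-fold higher, log2 fold change 1.95 ± 0.13 SE, limma adjusted p = 8.43e-07). The related gene Sesn2 had 174, 225, 190.2 and 142 in CD24Mid and 199.7, 188, 181 and 167 in CD24Neg, and was not called (log2 fold change 0.03, 95% confidence interval -0.32 to 0.37, adjusted p = 0.887). With scaling to totals Sesn2 was called lower (-0.41, adjusted p = 0.0357). Zmat3, an RNA-binding zinc finger gene, was 1.45-fold higher with overlapping fractions (169 ± 32.0 against 246 ± 39.9, adjusted p = 0.0175). The Zmat3 call ended with scaling to totals (0.10, adjusted p = 0.606), without CD24Mid library 1 (adjusted p = 0.0501) and without CD24Neg library 4 (adjusted p = 0.0508).

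Aen, an exonuclease gene that promotes cell death, had values of 418, 484, 524 and 387 in CD24Mid and 101, 111, 81.6 and 97.1 in CD24Neg. It was 4.61-fold lower without overlap (log2 fold change -2.21 ± 0.15 SE, limma adjusted p = 8.86e-07). Eda2r, a receptor of the tumour necrosis factor family, had 20.3, 23.8, 60.7 and 15.3 in CD24Mid and 0, 0.870, 2.66 and 0 in CD24Neg, where every library lay at or under 3 reads. CD24Mid library 5 held the highest Eda2r value. Phlda3, an inhibitor of the survival kinase AKT, had 24.1, 19.7, 41.5 and 10.2 in CD24Mid and 2.81, 0, 2.85 and 4.17 in CD24Neg, again at or under 3 reads throughout. No fold or p is given for these genes, because only their CD24Mid values took them past the filter. Tigar, a regulator of glycolysis, was 1.32-fold lower (205 ± 17.3 against 155 ± 7.21, adjusted p = 0.012), a call that ended with quantile normalization (-0.20, adjusted p = 0.169). Ccng1, the gene of cyclin G1, was not called (1112 ± 259.7 against 941 ± 207, adjusted p = 0.3) and was called lower with scaling to totals (-0.68, adjusted p = 0.00872).

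Promoter windows of 300 bases around annotated start sites (RefSeq, build GRCm38.p6) were searched for exact matches to the p53 half-site decamer, the consensus to which p53 binds as pairs. The decamer consensus is its own reverse complement, so both strands were covered. Windows were found for 41 of the 45 members, and 8 of these (19.5%) held a match, against 9.55% of 27025 genes in the table. The members include p53 and known p53 targets, so a higher share was built in and is not read as a result. The number of windows per gene also differed, with 57 windows for the 41 members and 32851 for the 27025 genes. Of the 11 members that are p53, its regulators or p53 targets, 10 had a window and 5 of them a match (Trp53, Mdm2, Aen, Ccng1 and Sesn1), while Mdm4, Eda2r, Phlda3, Sesn2 and Tigar had none. The matches below are those of p53 itself and of known p53 targets, Bax among them. They are shown because their genes went in different directions: Sesn1 and Mdm2 were higher, Aen and Trp53 lower, and Bax and Ccng1 not called. Capitals mark the decamer, all sequences read 5′ to 3′ on the strand of the gene, and the Aen stretch is shorter because it overlaps an annotated exon.
Sesn1, chr10:41887236-41887305, plus strand: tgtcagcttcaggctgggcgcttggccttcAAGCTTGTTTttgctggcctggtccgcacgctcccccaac
Mdm2, chr10:117710905-117710974, minus strand: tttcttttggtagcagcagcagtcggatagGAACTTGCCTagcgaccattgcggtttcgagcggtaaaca
Bax, chr7:45467060-45467129, minus strand: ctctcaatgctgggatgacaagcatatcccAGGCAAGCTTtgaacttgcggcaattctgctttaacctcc
Ccng1, chr11:40755432-40755501, minus strand: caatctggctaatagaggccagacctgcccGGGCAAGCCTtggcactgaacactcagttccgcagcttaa
Aen, chr7:78895927-78895956, plus strand: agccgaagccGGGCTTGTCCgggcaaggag
Trp53, chr11:69580254-69580323, plus strand: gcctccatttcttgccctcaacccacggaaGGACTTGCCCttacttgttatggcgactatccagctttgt

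The decamer began 173 bases before the start site in Sesn1, 186 in Mdm2, 185 in Ccng1, 201 in Bax and 75 in Trp53. A match is a description of the letters in the window, and binding was not measured here. The remaining members with a match were Bmf and Birc2.

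Other genes of these pathways, from 3 further lists, were measured for comparison. Of 14 tested genes of death ligand and receptor signalling 9 were higher (64.3%) and 2 lower, against 34.0% and 34.3% of all tested genes. Rnf31, the catalytic subunit of the linear ubiquitin ligase, rose 2.67-fold (609 ± 65.1 against 1627 ± 147, adjusted p = 2.24e-06). The inflammatory caspase genes Casp4 (208 ± 64.5 against 517 ± 152, 2.49-fold) and Casp1 (1383 ± 162 against 3314 ± 363, 2.40-fold) rose as well. The lower calls were Tnf, which encodes the cytokine, and the receptor gene Tnfrsf1b. Tnf had values of 25.9, 19.4, 17.8 and 76.1 in CD24Mid and 8.43, 9.92, 3.89 and 10.7 in CD24Neg. CD24Mid library 7 held the highest Tnf value. No fold or p is given for Tnf, because its CD24Mid values by themselves took it past the filter. Tnfrsf1b fell from 209 ± 23.3 to 99.4 ± 53.6 (adjusted p = 0.00962). The log2 fold change of Tnfrsf1b, -1.23, went to -1.92, adjusted p = 2.95e-05 without CD24Neg libraries 2 and 8.

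Of 23 tested genes of execution and mitochondrial death 10 were higher (43.5%) and 7 lower, not far from the 34.0% and 34.3% of all tested genes. Gsdmd, which encodes the pore-forming protein of pyroptosis, rose 22.6-fold, from 521, 349, 301 and 359 to 8237, 7551, 9272 and 8979.6 (adjusted p = 1.55e-07), the largest rise among the genes of the 3 lists. The mitophagy gene Bnip3 rose 5.02-fold (23.4 ± 6.83 against 119 ± 28.04). Birc5, the gene of survivin, which acts mainly in mitosis, fell 6.88-fold (1184 ± 106 against 179 ± 63.5), and the DNA repair gene Parp1 fell 5.996-fold (1509 ± 149.98 against 253 ± 43.7). Casp12, an endoplasmic reticulum caspase, fell 3.12-fold (49.2 ± 15.5 against 15.5 ± 5.04).

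Of 31 further tested p53 targets and modifiers 11 were higher and 11 lower, shares near the 34.0% and 34.3% of all tested genes. Cdkn1a, the gene of the cell cycle inhibitor p21 and a classic p53 target, rose from 678, 535, 605 and 464 to 2730.0, 2672, 2899 and 2421 (4.73-fold, adjusted p = 4e-07). Sulf2, a heparan sulfatase gene, rose 8.50-fold (221 ± 65.1 against 1838 ± 375), and the xylulose reductase gene Dcxr 3.36-fold (127 ± 20.6 against 425 ± 50.6). Psrc1, a spindle protein gene, fell 13.2-fold (188 ± 25.6 against 14.2 ± 4.29), and the growth signalling inhibitor gene Ddit4 2.70-fold (919 ± 104 against 348 ± 96.3). Ptp4a3, a phosphatase gene, fell 3.06-fold with overlapping fractions (129.9 ± 24.8 against 55.4 ± 41.5, adjusted p = 0.0275). Its call ended when no low values were filtered out (-1.61, adjusted p = 0.101) and without CD24Mid library 1 or 3 or CD24Neg library 4 (adjusted p from 0.0604 to 0.0624), and without CD24Neg library 6 its log2 fold change went from -1.61 to -1.02, adjusted p = 0.0349. The Ptp4a3 values in CD24Neg were 104.5, 32.2, 11.8 and 73.1. Across the 19 alternatives its log2 fold change ran from -2.66 to -1.02.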

How the data were processed

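Gene-level signal values, 1 per Ensembl gene and library, were deposited by the authors already scaled between libraries, per the file headers and the values themselves. Bowtie 0.12.8 and build NCBIM37 are listed in the submitters' processing notes, while the annotation release, strand setting and scaling tool were not given in the sources used here. Values are not divided by gene length. Whole reads could not be restored, so no count model was used, and depth was estimated from the spacing of the lowest values, taking 1 step as 1 read.

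A gene was tested if 4 or more libraries reached a value of 10. After median-ratio centring of the libraries, limma 3.58.1 under R 4.3.3 was run on log2(value + 0.5), with trend and robust variance and no covariates. The fit was run on simulated data in which few genes changed, with rises and falls in balance. Such data cannot test the centring in a comparison where 68.3% of genes were called. Symbols came from GENCODE M21, which matched 21223 of 23318 identifiers. Of the members, 7 share exon positions with another gene in the files. Groups follow the sample titles. The fractions share no library number.

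The members and lists were chosen with earlier results of these data known. Of the members, values in every library are given for the 12 largest called changes, the 4 smallest tested changes, Trp53, Mdm2, Bcl2, Bax, Casp8 and those under the filter, and for some others. Of each further list, the 3 largest rises and 3 largest falls are named, with Cdkn1a, except for genes that are not reported here. Of 76 genes on these lists, 74 were matched and 68 tested. The alternatives are given in the closing section.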

Additional observations from a re-analysis of the deposited data

Results flagged for a closer look

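In groups of 4 libraries, a single library lay far from the other 3 (a gap above Dixon's 95% critical value) in 5 of the 90 groups of member values. Chance flags about 1 group in 20. Bax was at 559 in CD24Neg library 2, against 419 to 441 in the other CD24Neg libraries. Casp9 was at 468 in CD24Neg library 8, against 547 to 559. Birc3 was at 560.2 in CD24Mid library 7, against 402 to 427. Trp53 was at 2053 in CD24Mid library 3, against 1568 to 1642. Bik was at 1.07 in CD24Neg library 4, about 1 read, and listed at 0 in the other 3.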

How the results depend on the processing

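No paired analysis was run, because no label pairs the libraries and the fractions share no library number. Whether consecutive numbers share an animal or a sort is not stated, and the unpaired fit would miss such a link. The Paneth cell gene Lyz1, for example, was highest in CD24Mid library 3 (1102) and CD24Neg library 4 (1719). So were Ang4, Itln1, Defa17 and Defa24 of the same marker list, while its member Mmp7 was highest in CD24Mid library 7 (269.8) and CD24Neg library 8 (72.9). A link of this kind was not tested. Of the 35 called members, 14 kept direction and call under all 19 alternatives, and Eda2r and Phlda3 under the 18 in which they were tested (they failed the filter at 50). For Eda2r and Phlda3 this carries no weight, since CD24Mid alone took them past the filter. The share of all tested genes that kept a call under every alternative was not computed. The test against a fold change of 1.5 ended 19 member calls and left 12 members higher and 4 lower (pro-apoptotic 9 and 0, anti-apoptotic 0 and 0, further lists 19 and 8, all genes 4790, of which 2360 higher and 2430 lower). Scaling to totals that leave out the 20 most abundant genes ended 10 with their direction kept, and also those of Bcl2l2 and Bid, whose direction changed. It left 16 higher and 14 lower (pro-apoptotic 9 and 5, anti-apoptotic 3 higher, all genes 2790 higher). Scaling to totals of genes outside the mitochondrial genome, chosen after seeing the data, gave 15 and 14 (pro-apoptotic 9 and 5, anti-apoptotic 3 higher, all genes 2723 higher and 6695 lower). With no filter on low values 2 pro-apoptotic members were lower, since Bik was then tested. Under these 2 scalings to totals, in that order, the log2 fold change changed sign for Bcl2l2 (-0.081 and -0.10), Bid (-0.084 and -0.11), Bcl2l11 (-0.28 and -0.30), Casp2 (-0.28 and -0.30), Xiap (-0.091 and -0.12) and Sesn2 (-0.41 and -0.44). For Casp2 it also did so under quantile normalization (-0.14). Bcl2l11, Casp2 and Sesn2 were called lower under both scalings to totals. Without CD24Neg libraries 2 and 8 the log2 fold change changed sign for Fadd (0.013) and Mdm4 (0.14). Leaving out 1 library at a time, the lowest and highest log2 fold changes were -0.21 and 0.045 for Fadd, -0.26 and 0.10 for Mdm4, -0.095 and 0.13 for Sesn2.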
